A study of Drosophila melanogaster with 6 samples.

Results

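The antisense RNAs described here are annotated Drosophila transcripts whose symbol begins with asRNA, and 82 of the 486 such rows in a table of 17807 genes carried enough reads to be followed. They were chosen by level: a row was kept where it held 10 or more DESeq2-normalized counts in 3 or more of the 6 libraries. Another 138 antisense rows had no read in any library. The libraries were poly(A)-selected, strand-specific mRNA-seq of ovarian somatic cells (OSCs), a cultured Drosophila line derived from the somatic follicle cells of the ovary. Every library came from OSCs that carry an l(3)mbt knockout, so the controls share that deletion, and L(3)mbt is a chromatin protein that keeps germline genes silent in these cells. In 3 libraries the cells had received a 21-nt siRNA duplex against ovo, the gene of a DNA-binding factor needed by female germ cells. In the other 3 libraries, the controls, they had received an siRNA against renilla, a luciferase that flies do not have. RNA was taken 48 h after nucleofection, with 500 ng of total RNA going into poly(A) selection. The labels name no separate cultures, clones or passages behind the replicates, so p values measure the spread between these samples, which may be technical.

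A natural antisense transcript is made from the opposite strand of another gene, the sense partner, and can overlap its exons. Such RNAs are known in different settings to block or aid transcription of the partner, to pair with its mRNA and feed the endo-siRNA pathway through Dicer-2, or to be by-products of divergent promoters and read-through. Most of the Drosophila asRNA genes have a name made from an annotation number and no assigned function, so the partner gene is the main handle on what each one lies across.

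Total reads assigned to genes ranged from 14276921 to 21481506 in the ovo siRNA libraries and from 2759594 to 11623446 in the controls. The shallowest, renilla siRNA replicate 3, needed 13.1 normalized counts to reach 3 reads, against 1.39 to 2.86 in the other 5 libraries, and 11 of the antisense RNAs lay under that floor in it, 4 of them with no read. The target of the siRNA was lower: ovo held 961, 885 and 875 normalized counts with ovo siRNA and 1300, 1590 and 1642 with renilla siRNA (log2 fold change -0.73 ± 0.13 SE, adjusted p = 0.00862). The groups did not overlap for ovo, and with a trend in GC content and length removed from each library its change was -0.42 (adjusted p = 0.135). The l(3)mbt row still held 2911 ± 426 and 2334 ± 582 counts (SD, n = 3 each), and the labels do not say which part of the gene was removed, so this row does not check the knockout. Of 9 follicle cell markers, 9 passed the level minimum, with summed levels of 38730 to 46730 normalized counts with ovo siRNA and 49920 to 60920 in the controls (5 fell and 1 rose). Of 8 germ cell markers 5 passed (3 fell), and 3 of 4 fat body markers were at 0. Their part in the antisense results was not tested.

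The duplex that set the groups apart is shown because its letters limit where a direct match could lie. Both strands matched the ovo gene over 21 of 21 bases within exonic sequence, the antisense strand at chrX:5066359-5066379 and the sense strand at chrX:5066361-5066381 (dm6).
ovo siRNA antisense strand: ucgucguccacgcagcuccuu
ovo siRNA sense strand: ggagcugcguggacgacgagg
The longest run of letters that either strand shared with the exons of any of the 82 antisense RNAs was 10 bases.

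The 3 upstream regions below belong to antisense RNAs that fell with ovo siRNA, each shown from 250 bases before to 50 bases after the annotated start. They were picked to show a start inside a partner's neighbourhood (asRNA:CR46089 and asRNA:CR45806) and a start with a CNGTTA match (asRNA:CR45778). The windows are chr3R:23052666-23052965 on the plus strand, chr3L:174888-175187 on the plus strand and chr2L:11012086-11012385 on the minus strand (dm6, RefSeq genome sequence), and capitals mark the CNGTTA match, where N is any base.
asRNA:CR46089: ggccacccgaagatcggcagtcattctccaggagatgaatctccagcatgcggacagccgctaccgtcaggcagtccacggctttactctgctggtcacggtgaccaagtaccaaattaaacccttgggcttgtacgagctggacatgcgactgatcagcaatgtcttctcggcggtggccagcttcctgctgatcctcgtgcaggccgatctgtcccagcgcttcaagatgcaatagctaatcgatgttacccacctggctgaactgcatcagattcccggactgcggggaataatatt
asRNA:CR45806: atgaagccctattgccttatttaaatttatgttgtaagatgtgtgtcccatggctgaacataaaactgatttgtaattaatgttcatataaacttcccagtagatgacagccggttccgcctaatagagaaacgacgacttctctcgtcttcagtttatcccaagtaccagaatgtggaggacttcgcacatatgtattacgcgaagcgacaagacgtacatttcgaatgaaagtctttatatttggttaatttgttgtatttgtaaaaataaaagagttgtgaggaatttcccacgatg
asRNA:CR45778: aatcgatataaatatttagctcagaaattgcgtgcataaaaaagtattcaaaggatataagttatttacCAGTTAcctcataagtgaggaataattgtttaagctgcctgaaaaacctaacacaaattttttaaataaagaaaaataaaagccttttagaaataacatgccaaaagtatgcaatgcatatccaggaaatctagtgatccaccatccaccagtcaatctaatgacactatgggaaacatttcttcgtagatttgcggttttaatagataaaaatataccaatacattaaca
The match in asRNA:CR45778 begins 181 bases before the start, and the other windows shown hold no CNGTTA on either strand.

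CNGTTA is the core of the sequence that Ovo binds, and CCGTTA is one of its forms. Among the 82 antisense RNAs, 30 windows (36.6%) held CNGTTA on either strand and 8 (9.76%) held CCGTTA. The same windows of all 7879 tested genes with an annotated start held them in 41.6% and 10.7%, and those of 17677 genes in the table in 37.7% and 8.12%. Of the 19 antisense RNAs that fell, 5 held CNGTTA and 1 held CCGTTA. Matches in 4 of those 5 are shown with 12 bases on each side, as they lie on the strand of the antisense RNA, where TAACNG is CNGTTA read from the other strand.
asRNA:CR45778: taagttatttacCAGTTAcctcataagtga
asRNA:CR44599: catttacatatgCAGTTAacaaatacaact
asRNA:CR45126: ttactccatgagTAACGGgtataaagaaga
asRNA:CR44119: agccaagaactaTAACAGttgactttacca
These begin 181, 56, 97 and 68 bases before the annotated starts. The shares among the antisense RNAs were somewhat below those among all tested genes. Beside the genes in the table, the CNGTTA share was slightly lower and the CCGTTA share slightly higher. These differences were not tested.

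Antisense RNAs were a small part of the libraries. Their summed level was 3973 to 4242 normalized counts with ovo siRNA and 5088 to 5291 in the controls, and the groups did not overlap in that sum. As a share of the reads of a library they made 0.0432%, 0.0398% and 0.0410% with ovo siRNA and 0.050%, 0.0478% and 0.0421% in the controls, and on that scale the groups overlapped, with renilla siRNA replicate 3 below ovo siRNA replicate 1. The median antisense RNA had a mean of 36.3 normalized counts over the 6 libraries, 12 had a mean of 100 or more, and 23 had a mean under 20. Per kilobase of exon the median level was 28.3, against 53.4 for the 158 lncRNA rows that passed the same minimum and 197 for the other genes. Their exons totalled 227 to 7622 bases with a median of 1298, and 28 of the 82 had a single exon.

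The order of levels was led by 6 RNAs that lie across quite different partners. asRNA:CR43944 was the most abundant, at 285, 245 and 339 normalized counts with ovo siRNA and 329, 339 and 377 in the controls, and it lies inside fbl, the pantothenate kinase fumble. asRNA:CR43467, which spans the odorant receptor gene Or46a, held 280, 291 and 274 against 282, 283 and 272. Its libraries were within a narrow band in both groups (log2 fold change 0.01, adjusted p = 0.944). asRNA:CR45195, inside the sorbitol dehydrogenase gene Sodh-2, had means of 260 ± 20.4 and 202 ± 43.8, and asRNA:CR42547 had 187 ± 2.82 and 176 ± 32.9 (SD, n = 3 each). These 4 had overlapping groups and none passed the test. asRNA:CR45604 and asRNA:CR45108, with means of 197 and 145 over the 6 libraries, fell and are described with their values below. Over the 6 libraries the range of each of these RNAs overlapped that of its neighbour in the order, although asRNA:CR43467 was above asRNA:CR45195 in each of the 6. Per kilobase, asRNA:CR45195 led with 260, followed by asRNA:CR43944 with 208 and asRNA:CR44030 with 173.

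At the other end, the level minimum sorted neighbours with almost the same counts. In the 3 just inside it the third highest library held 10.0 to 10.2 normalized counts (asRNA:CR45926, asRNA:CR43824 and asRNA:CR45198), and in the 3 just outside 8.76 to 9.75 (asRNA:CR43629, asRNA:CR43159 and asRNA:CR45831). For 77 antisense RNAs both groups held libraries at or above the minimum. The other 5 reached it through the controls alone, and an RNA admitted that way had to be lower with ovo siRNA.

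With ovo siRNA 19 of the 82 antisense RNAs fell and 0 rose. The falls made 23.2% of the antisense RNAs, against 14.1% of all 7893 genes tested, and the rises stood against 11.8% of all genes. The 5 RNAs admitted through the controls alone were among the 19, which leaves 14 of the 77 others (18.2%). Genes admitted in that way were not taken out of the 14.1%. The median log2 fold change was -0.27 for the antisense RNAs and 0.04 for all genes. Since the list was picked by level, these counts and medians are a description of it. The test was limma on log2(normalized count + 1) with Benjamini-Hochberg adjustment over all tested genes, a scale that understates the change of low genes. At an unadjusted p under 0.05 limma gave 2 rises among the antisense RNAs, and edgeR and DESeq2 on the recovered reads gave 0 each after adjustment. With quantile normalization the split was 11 falls and 3 rises.

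**Figure D1:**
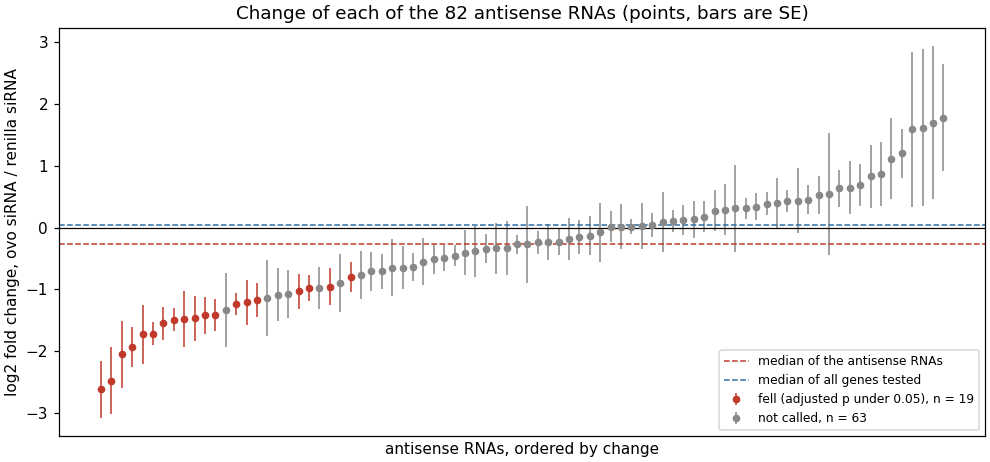
The log2 fold change (ovo siRNA over renilla siRNA) of each of the 82 antisense RNAs in order of size, with bars for the SE of limma, the 19 that fell in red and the 63 not called in grey; dashed lines give the medians of -0.27 (antisense RNAs) and 0.04 (all genes tested). Called falls run from -2.62 to -0.80, and no RNA on the right-hand side is called.

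The lncRNA rows, the other class of annotated noncoding transcripts, moved the same way and in a larger share. Of 158 tested, 75 fell (47.5%) and 1 rose, with a median log2 fold change of -0.91. Among 3309 other tested genes with means no higher than that of the most abundant antisense RNA, 15.1% fell and 9.91% rose. That set includes lncRNA rows, and its median mean was 117 normalized counts against 36.3 for the antisense RNAs. Of the tested genes that are neither antisense RNAs nor lncRNAs, 13.3% fell. The antisense share of 23.2% lay between these and that of lncRNAs. It was 18.2% without the RNAs admitted through the controls alone. Genes admitted in that way were not taken out of the other classes, so the 18.2% is not placed in this order. The difference between classes was not given a test of its own.

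**Figure D2:**
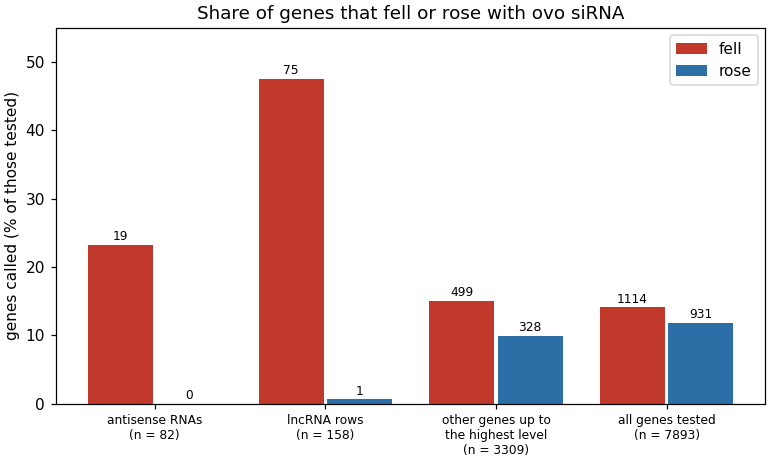
The share of tested genes that fell (red) or rose (blue) with ovo siRNA, in percent from 0. Groups are 82 antisense RNAs, 158 lncRNA rows, 3309 other genes and all 7893 genes tested. The 3309 have means up to that of the most abundant antisense RNA and include lncRNA rows. Numbers over the bars are genes. The antisense bars read 23.2% and 0, and the lncRNA bars 47.5% and 0.633%.

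Counted by overlap, 29 antisense RNAs had all 3 ovo siRNA libraries below all 3 controls, 7 had them all above, and 46 had overlapping groups. Over all genes tested, 21.7% were fully lower and 23.6% fully higher. Without the 5 RNAs admitted through the controls alone, for which the level minimum itself sets the groups apart, 24 of 77 (31.2%) were fully lower and 7 (9.09%) fully higher. Genes admitted in that way were not taken out of the shares over all genes. Each of the 19 that fell was among the 29.

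**Figure D3:**
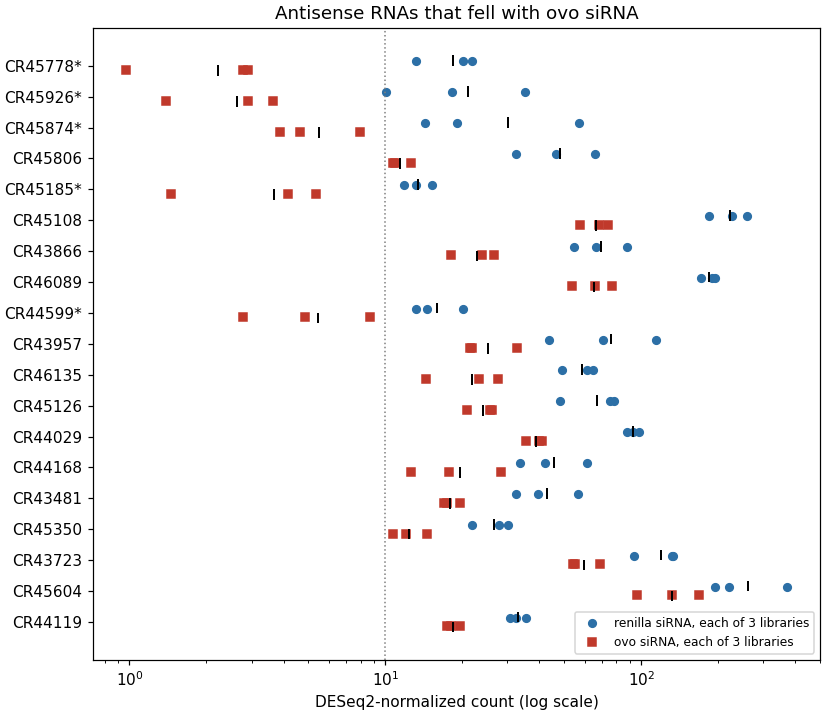
DESeq2-normalized counts on a log axis of the 19 antisense RNAs that fell, in order of log2 fold change; squares are the 3 ovo siRNA libraries, circles the 3 renilla siRNA libraries, short lines the group means, the dotted line the level minimum of 10, and an asterisk marks the 5 RNAs that reached it through the controls alone. In each row the squares lie to the left of the circles, and the values run from 0.970 to 372.

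The 3 falls called under every alternative came from RNAs that lie across genes of different roles. asRNA:CR46089 (chr3R:23052916-23057984, plus strand, 1 exon of 5069 bases) held 53.9, 76.6 and 66.0 normalized counts with ovo siRNA and 189, 195 and 171 in the controls. The 3 treated libraries all lay far below the lowest control (log2 fold change -1.49 ± 0.18 SE, adjusted p = 0.00270). It overlaps the 3′ end of CG17119 and the 5′ end of p53, the stress-response transcription factor. asRNA:CR45108 (chr2R:7783334-7785585, plus strand, 2 exons) held 68.4, 57.6 and 74.0 counts against 183, 227 and 258, a 3.29-fold lower level (log2 fold change -1.72 ± 0.19, adjusted p = 0.00209, the smallest among the antisense RNAs). It overlaps the 5′ end of cn, the cinnabar gene of eye pigment synthesis, which was itself at 0 and 2.73 normalized counts and was not tested. asRNA:CR43866 lies inside Gal, the beta-galactosidase gene, and held 26.7, 18.1 and 23.9 counts against 66.5, 54.4 and 87.6 (log2 fold change -1.55 ± 0.27, adjusted p = 0.00746). Gal had a mean under 1 count in both groups, so here and at cn the antisense strand carried nearly all reads of the locus.

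Several fallen RNAs lie inside or across genes that were expressed. asRNA:CR45806 (chr3L:175138-176104, plus strand, 1 exon), whose whole length lies within exons of CG7049, held 12.6, 10.7 and 10.9 counts with ovo siRNA and 46.5, 32.5 and 65.7 in the controls (log2 fold change -1.94 ± 0.32, adjusted p = 0.00634). asRNA:CR46135 spans Atu and held 27.7, 14.4 and 23.2 counts against 49.2, 64.9 and 61.3 (log2 fold change -1.42 ± 0.29, adjusted p = 0.0131). asRNA:CR43723, at the 5′ end of Coop, a corepressor of the Wnt pathway factor Pangolin, held 55.3, 54.3 and 68.9 counts against 93.8, 133 and 131. Its groups lay apart with a change of -0.98 ± 0.21 (adjusted p = 0.0149). asRNA:CR45604 is 5913 bases long, spans CG2061, CG2076 and the antiviral gene Vago, and held 96.5, 132 and 168 counts against 194, 220 and 372. Its fall was among the smallest called (log2 fold change -0.96 ± 0.29, adjusted p = 0.0480), and with TMM scaling the adjusted p was 0.0515.

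The 5 RNAs admitted through the controls alone rested on few reads. asRNA:CR45778 had 2, 6 and 4 reads with ovo siRNA and 24, 21 and 3 in the controls, or 0.970, 2.79 and 2.90 normalized counts against 21.9, 20.1 and 13.1 (log2 fold change -2.62 ± 0.46, adjusted p = 0.00775). It covers dUTPase, an enzyme that keeps uracil out of DNA. asRNA:CR45926, inside the nucleosome assembly factor gene Nap1, had 6, 3 and 5 reads against 11, 19 and 8, and asRNA:CR45874, inside the ribosomal protein gene RpS9, had 8, 10 and 11 against 21, 15 and 13. The normalized means of 2.64 and 21.1 (asRNA:CR45926) and of 5.50 and 30.1 (asRNA:CR45874) lie further apart than these read counts, since the control libraries were shallower. asRNA:CR45185, inside the chitinase gene Cht6, and asRNA:CR44599, inside loqs, which encodes a double-stranded RNA binding partner of Dicer, complete this group, with means of 3.66 against 13.4 and of 5.45 against 15.9 normalized counts. With the level minimum lifted so that every row with a read was tested, asRNA:CR45874, asRNA:CR45185 and asRNA:CR44599 missed the threshold (adjusted p = 0.0538, 0.0621 and 0.0940).

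The remaining falls ran from -1.47 to -0.80 on the log2 scale and belonged to asRNA:CR43957, asRNA:CR45126, asRNA:CR44029, asRNA:CR44168, asRNA:CR43481, asRNA:CR45350 and asRNA:CR44119. asRNA:CR45350 had no opposite-strand gene over its exons or introns in the annotation used here. asRNA:CR43481 overlaps the 5′ end of the small heat shock protein gene Hsp67Ba and held 17.0, 19.5 and 17.4 counts against 56.5, 32.5 and 39.4. asRNA:CR44119 overlaps SLC5A11, a solute transporter gene with a mean of 4.42 and 7.40 counts, and its fall of -0.80 ± 0.24 (adjusted p = 0.0431) was called in 6 of the 15 alternatives that tested it.

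How many antisense RNAs fell depended on which library was left out. Without renilla siRNA replicate 3, the shallow control, 23 of 74 fell and 5 rose, and all 14 of the original falls that were still tested were among the 23. The 5 that then rose were asRNA:CR43470, asRNA:CR44367, asRNA:CR46055, asRNA:CR44843 and asRNA:CR45162, while 23.8% of the genes that are neither antisense RNAs nor lncRNAs fell and 26.8% rose in that fit. Leaving out ovo siRNA replicate 1, 2 or 3 left 10, 6 and 10 falls, and leaving out renilla siRNA replicate 1 or 2 left 9 and 7. The 3 falls called under all 17 alternatives were those of asRNA:CR43866, asRNA:CR45108 and asRNA:CR46089. asRNA:CR45806 kept its fall in the 15 alternatives that tested it, and asRNA:CR45778 in 12. The latter was admitted through the controls alone, and so had to be lower with ovo siRNA.

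No rise was called, and the largest upward values came with wide errors. asRNA:CR45528 had means of 14.4 and 5.57 normalized counts (log2 fold change 1.78), and asRNA:CR43469, asRNA:CR44381 and asRNA:CR44382 had values of 1.70, 1.62 and 1.59. Those 4 had no read in renilla siRNA replicate 3, where 3 reads correspond to 13.1 counts. asRNA:CR46055, inside the cell cycle gene E2f1, came nearest to a call with 14.1, 16.3 and 20.3 counts with ovo siRNA and 10.0, 6.68 and 4.38 in the controls. Its groups did not overlap (log2 fold change 1.20, adjusted p = 0.0578), on 28 to 35 reads against 1 to 11. It was named, as were the 4 before it, after its values were seen.

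Sense partners were set by exon overlap on the opposite strand, and 81 of the 82 antisense RNAs had at least 1, with 23 having more. By place, 26 lay inside their main partner, 19 spanned it, 22 overlapped it at the 5′ ends and 14 at the 3′ ends, with 7, 3, 6 and 2 falls. Among all genes tested 14.1% fell. The 7 falls inside a partner include asRNA:CR44599, asRNA:CR45185, asRNA:CR45874 and asRNA:CR45926, and the 3 that spanned one include asRNA:CR45778. These RNAs were admitted through the controls alone and had to be lower with ovo siRNA, so the places are not compared by their falls. The partners ranged from silent to among the most abundant mRNAs: 36 antisense RNAs had a higher mean count than their main partner, and the antisense level was from 0.0870% to 27740% of the partner's, with a median of 40.6%. The extremes of this share were asRNA:CR45874 over RpS9 and asRNA:CR43467 over Or46a. The share and its median leave out asRNA:CR42871, asRNA:CR44843 and asRNA:CR45009, whose main partners (CG6661, Lk and FucTC) had no read in any library.

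Both directions occurred among the partners. Of 53 different main partners that were tested, 7 fell, 10 rose and 36 were not called, so 13.2% fell and 18.9% rose, beside 14.1% and 11.8% of all genes. Of the 19 fallen antisense RNAs, 1 had a partner that fell (bip2), 4 had a partner that rose (CG17119, CG7049, Atu and CG2061, the last at an adjusted p of 0.0615 with quantile normalization), 10 had a partner that was not called and 4 had no tested partner. The 10 include the 5 RNAs admitted through the controls alone (partners dUTPase, RpS9, Nap1, Cht6 and loqs), which had to be lower with ovo siRNA. Over 54 antisense RNAs with a tested main partner, these 5 included, the log2 fold changes of both strands were compared. Pearson r was 0.0192 and Spearman rho was 0.0194, a description over points that share the same 6 libraries.

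**Figure D4:**
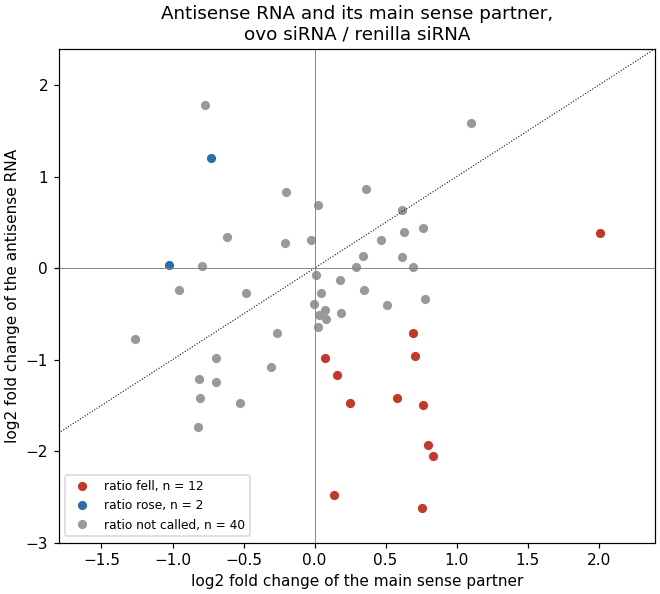
The log2 fold change of 54 antisense RNAs against that of their main sense partner, both ovo siRNA over renilla siRNA; the dotted line marks equal change, and colours give the call on the antisense to sense ratio (12 fell in red, 2 rose in blue, 40 not called in grey). Red points lie below the line, most of them with a partner value above 0 and an antisense value below 0. Those at dUTPase, RpS9, Nap1 and loqs are RNAs admitted through the controls alone, which had to be lower with ovo siRNA.

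The ratio of the strands within each library asks whether an antisense RNA moved apart from its partner. It was tested by limma over all 1171 opposite-strand gene pairs in which both genes passed the level minimum, and 18.0% of those pairs were called in either direction. Of the 70 pairs that hold an antisense RNA described here (57 RNAs, some with several partners), 17 fell and 3 rose, or 28.6%, and the 17 came from 13 RNAs. Without the 5 pairs of RNAs admitted through the controls alone, 13 of 65 fell and 3 rose, or 24.6%. Pairs of other genes admitted in that way were not taken out of the 18.0%. The largest shifts among the called pairs were at dUTPase (log2 -3.38, adjusted p = 0.0117), RpS9 (-2.89, 0.00652), CG7049 (-2.73, 0.00652), Nap1 (-2.62, 0.0171), CG17119 (-2.26, 0.00277) and Atu (-2.0, 0.0112), each with the adjusted p after the shift. Of these, the pairs at dUTPase, RpS9 and Nap1 hold RNAs admitted through the controls alone, as does the called pair at loqs.

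In 3 of these loci the strands were called in opposite directions by the gene tests as well. CG17119 held 484, 497 and 459 normalized counts with ovo siRNA and 321, 282 and 250 in the controls, and its antisense RNA asRNA:CR46089 went from 58.8% to 69.2% of the CG17119 count in the controls to 11.1% to 15.4% with ovo siRNA. CG7049 held 295, 333 and 396 counts against 185, 201 and 197, and asRNA:CR45806 went from 16.1% to 33.3% of it in the controls to 2.75% to 4.28%. Atu held 1039, 1039 and 977 counts against 776, 678 and 600, with asRNA:CR46135 at 6.34% to 10.2% in the controls and 1.39% to 2.66% with ovo siRNA. At each of the 3 the sense gene rose (log2 0.76, 0.80 and 0.58), the antisense RNA fell, and neither strand's groups overlapped. With the GC and length trend removed, CG17119 and CG7049 were still called (0.49 and 0.48, adjusted p = 0.0268 and 0.0381), and Atu was not (0.05, adjusted p = 0.749).

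A ratio also moved where the antisense RNA itself was not called. Sodh-2 rose from 104, 75.4 and 87.6 to 275, 380 and 443 counts (log2 fold change 2.01 ± 0.22, adjusted p = 0.00205), while asRNA:CR45195 inside it had overlapping groups (log2 0.39, adjusted p = 0.173). Its share of the Sodh-2 count was 175% to 282% in the controls and 61.4% to 86.1% with ovo siRNA (ratio log2 -1.62 ± 0.24, adjusted p = 0.00790). The reverse was seen at fuss, a gene of the Ski/Sno family on chromosome 4, which fell from 91.1, 92.6 and 110 to 43.2, 52.0 and 47.1 counts while asRNA:CR44030 had means of 131 ± 7.80 and 130 ± 29.0 (ratio 1.06, adjusted p = 0.0171). The fall of fuss was -1.03 on the log2 scale, and -0.45 (adjusted p = 0.144) with the GC and length trend removed. E2f1 and asRNA:CR46055 gave the largest rise in ratio among the called pairs (1.93, adjusted p = 0.0253), with the antisense RNA under 1% of E2f1 in every library. The third rise was asRNA:CR44168 over CG9875, where both strands fell and CG9875 fell further (-2.31 against -1.21).

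Counting used strand, and antisense reads were set beside sense reads at loci with very abundant partners. In 6 antisense rows at least 50% of the exons lay under a partner of 5000 or more normalized counts. Reads over the whole of each row were 0 to 0.426% of the sense reads estimated over the overlap, with a median of 0.0836%. They can hold true antisense reads from inside or outside the overlap, so the shares do not measure sense signal that appears as antisense. The single row of the 6 that passed the level minimum was asRNA:CR45874, at 0.0911% of RpS9. Of the 82 antisense RNAs, 6 had a mean under 1% of their main partner's, and 3 of those fell (asRNA:CR45778, asRNA:CR45874 and asRNA:CR45926). These 3 were admitted through the controls alone, so they had to be lower with ovo siRNA. Their partners had means of 4768 with ovo siRNA and 2979 in the controls for dUTPase, 25860 and 15070 for RpS9, and 5127 and 4674 for Nap1. None of these partners was called. Whether misassigned sense reads form part of those 6 levels was not tested. On the same strand, 6 antisense RNAs share exonic sequence with another gene, and 0 of them fell by limma, by its unadjusted p, by edgeR or by DESeq2.

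By chromosome, falls among the antisense RNAs were 2 of 14 on X, 4 of 9 on 2L, 5 of 19 on 2R, 3 of 16 on 3L, 2 of 17 on 3R and 3 of 7 on chromosome 4, the small and largely heterochromatic chromosome. These falls include RNAs admitted through the controls alone, which had to be lower with ovo siRNA. They were asRNA:CR45185 on X, asRNA:CR44599 and asRNA:CR45778 on 2L, asRNA:CR45926 on 2R and asRNA:CR45874 on 3L. Chromosome 4 was looked at after its values were seen. There, 37 of all 75 tested genes fell (49.3%) and 1 rose, against 13.8% falling elsewhere. The 3 antisense falls are among these 37. asRNA:CR44029 inside unc-13, a synaptic vesicle priming gene, held 35.4, 40.9 and 39.9 counts against 92.9, 98.3 and 87.6 (log2 fold change -1.24 ± 0.18, adjusted p = 0.00476). asRNA:CR45126 overlaps the 3′ end of bip2, a TFIID subunit gene, and held 20.9, 25.5 and 26.1 counts against 75.6, 78.3 and 48.2 (-1.42 ± 0.26, adjusted p = 0.00938), and bip2 fell too, from 4880 to 2839. asRNA:CR43957, at the 5′ end of the Hedgehog pathway factor ci, held 21.4, 21.8 and 32.6 counts against 43.7, 70.6 and 114 (-1.47 ± 0.37, adjusted p = 0.0250), while ci was not called (1819 with ovo siRNA and 2748 in the controls). At bip2 antisense RNA and partner both fell, and the ratio did not pass the test at any of these 3 loci (adjusted p = 0.242 to 0.309).

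**Figure D5:**
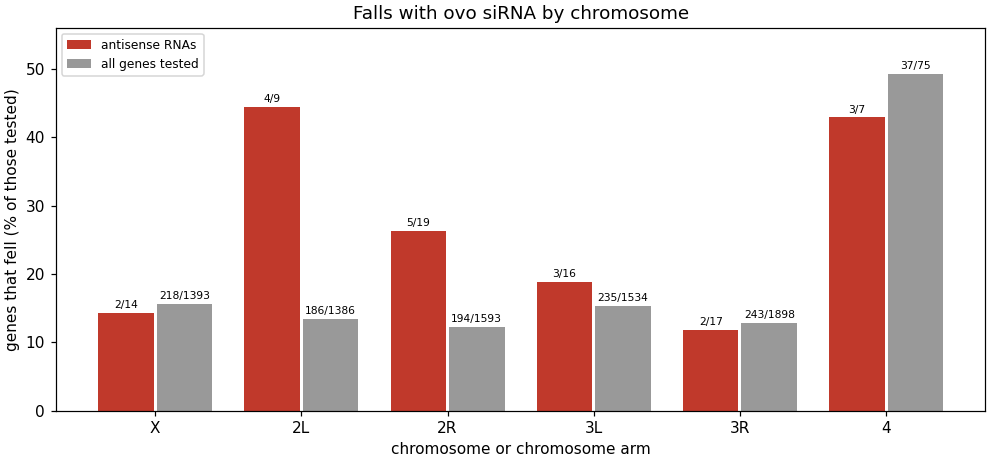
The share of tested genes that fell with ovo siRNA, in percent from 0, by chromosome or arm, for the antisense RNAs (red) and for all genes tested (grey), with genes fallen over genes tested above each bar. Chromosome 4 stands at 3 of 7 and 37 of 75, and 2L at 4 of 9 and 186 of 1386. The falls on 2L include asRNA:CR44599 and asRNA:CR45778, which were admitted through the controls alone and had to be lower with ovo siRNA.

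Base composition moved with the comparison. Over 7879 tested genes with an annotated sequence, exonic GC content and log2 fold change had a Pearson r of 0.405, and over the 82 antisense RNAs of 0.304, a description over genes of the same libraries. Tested genes of chromosome 4 had a median GC content of 36.3%, against 48.9% for all tested genes. After a smooth trend in GC content and length was removed from each library, 16 antisense RNAs fell and 1 rose (asRNA:CR44030), a share of 19.5% falling beside 34.2% of lncRNA rows and 13.8% of other genes. In that fit 5 of the 75 genes of chromosome 4 fell and 14 rose, asRNA:CR44029 was at -0.32 (adjusted p = 0.256), asRNA:CR45126 at -0.89 (adjusted p = 0.0532), its partner bip2 at -0.17 (adjusted p = 0.366) and asRNA:CR43957 at -0.95 (adjusted p = 0.0346). The 19 fallen antisense RNAs had a median GC content of 47.3% and the other 63 of 48.1%, and 13 of the 19 were still called after the trend was removed.

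Enzymes that act on antisense and double-stranded RNA are the last group. Of 6 endo-siRNA and double-stranded RNA genes 0 were called by limma, with 1 below an unadjusted p of 0.05, and edgeR and DESeq2 each called 1 fall. The closest was Adar, the RNA editing enzyme (686 ± 109 and 1077 ± 244 normalized counts, log2 fold change -0.63, adjusted p = 0.0537), while Dcr-2, which cuts double-stranded RNA into siRNAs, had 7365 ± 1197 and 7294 ± 2201. Of 12 genes of the RNA exosome, which degrades unstable nuclear transcripts, and its cofactors, 2 rose: the nuclease Dis3 (1272 ± 18.4 and 848 ± 70.6, log2 0.59, adjusted p = 0.0110) and the core subunit Ski6 (171 ± 20.9 and 101 ± 30.4, log2 0.78, adjusted p = 0.0444). Of 11 tested genes of Integrator, a complex that cleaves and ends noncoding transcripts, 3 rose (IntS2, IntS4 and IntS14, by 0.52, 0.90 and 0.80 on the log2 scale). Among all genes tested 11.8% rose. The exosome and Integrator lists had median log2 fold changes of 0.49 and 0.34, beside the 0.04 of all genes. Of the 82 antisense RNAs, asRNA:CR44599 in loqs is the one whose main partner is in these lists. It was admitted through the controls alone, so a lower level with ovo siRNA was built into its selection. Its ratio to loqs had a log2 change of -1.72 (limma, adjusted p = 0.0463), on 10, 6 and 12 reads against 16, 21 and 3. With the replicate number as a block in limma, the adjusted p of that ratio was 0.0650.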

How the data were processed

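The deposited signal values were counts that the authors divided by DESeq2 size factors (unit: normalized counts). Per the labels and methods, reads were trimmed with cutadapt 1.18, mapped with STAR 2.7.3a to dm6 (BDGP6) and counted by strand with featureCounts (Subread 1.5.3) before DESeq2 1.30.1. Size factors were undone to recover whole reads, and 100% of values came out within 0.01 of a whole number. A second deposited table holds the authors' own fold changes and p-values and was not used. limma 3.58.1 (R 4.3.3, trend) was fitted to log2(normalized count + 1) of 7893 genes with 10 or more counts in 3 or more of 6 libraries, with Benjamini-Hochberg adjustment and a threshold of 0.05; edgeR 4.0.16 and DESeq2 1.42.0 on recovered reads were alternatives, and called 2284 and 2634 genes against 2045. The method was tested on simulated data. Coordinates and partners came from Ensembl's annotation of dm6 in a later release than the one the authors counted on, so lengths, overlaps and levels per kilobase may differ from theirs; all 82 symbols matched, and 98.9% of its introns began with GT in the RefSeq sequence. Named RNAs were the 10 largest falls, the 6 most abundant, the 3 nearest the minimum on each side, those over listed genes and the 6 largest ratio shifts; others were named after their values were seen. Members and lists were chosen with earlier results of these data known. Of 14 Integrator and 3 cytoplasmic decay genes listed, 11 and 2 were matched by symbol. The smallest p of an exact permutation test of 3 against 3 is 0.1, so none was used. The 3-read floors cover counting error only, while SDs and SEs measure the spread between libraries.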

Additional observations from a re-analysis of the deposited data

How the results depend on the processing

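Of the 17 alternatives run on the genes, the count of 19 falls among the antisense RNAs stayed within 1.5 times under 0.5 and 5 as pseudocount, TMM scaling, edgeR, DESeq2, the GC and length trend and the replicate block (19 falls, 18 of them the same RNAs). It was 11 with no filter, 6 (of 32 tested) with a filter of 50, 11 with quantile normalization and 6 (of 40 tested) with reads thinned to the smallest library; leaving out 1 library gave 6 to 23. Rises went from 0 to 3 with quantile normalization and 1 after the GC and length trend was removed, and to between 0 and 5 leaving out 1 library. Partner falls (7) were 12 with DESeq2, 12 with the replicate block and 4 after the trend was removed, and 2 to 15 leaving out 1 library; partner rises (10) were 16 with the replicate block and 2 to 17. Ratio falls (17) were 8 (of 27 pairs) with a filter of 50 and 7 (of 33) with thinned reads, and 5 to 24 leaving out 1 library; ratio rises (3) were 1 and 0, and 0 to 5. The cause of these shifts was not tested, beyond the fewer RNAs, pairs or reads left by the filter of 50 and the thinning. Once the GC and length trend was taken out, the partners unc-13 (0.78), Coop (-0.42) and CG33978 (0.51) passed the threshold with the opposite sign. Deviations of same-numbered libraries from their group means had correlations of 0.442, -0.143 and 0.464. Such deviations sum to 0 within a group of 3, so these values cannot settle whether the numbers pair the samples. With all antisense RNAs counted, the share that fell was highest in lncRNAs and lowest in other genes in all 17 alternatives. These shares include the 5 RNAs admitted through the controls alone, which had to be lower with ovo siRNA. Without them the main antisense share went from 23.2% to 18.2%. With the replicate block all 5 were still called, and 23.2% of the antisense RNAs fell beside 18.3% of other genes, so the order in that fit depends on them. For the other alternatives the order without them was not examined. The depth of renilla siRNA replicate 3 limits what can be said of RNAs near the level minimum.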
